A study of Mus musculus with 14 samples.

Results

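Messenger RNA levels of the GATA factors GATA1 and GATA2 and of the proteins that work in one complex with them were described in mouse embryonic blood. The members were chosen by name, as 7 genes: Gata1, Gata2, Zfpm1, Tal1, Lmo2, Ldb1 and Lyl1. Every probe set whose platform symbol is one of these names was taken, which gave 9 of the 45101 probe sets on the array and 7 of the 18193 genes with 1 symbol. Gata2 and Zfpm1 have a pair of probe sets each, and the other members have 1. Peripheral blood was collected from embryos at E12.5 and its total RNA was hybridized to 14 Affymetrix arrays, with blood of 8 to 10 embryos per sample. In the first cross, Cbfb+/MYH11 animals, which descend from chimeras, were mated to C57/Bl6. This cross gave heterozygous Cbfb+/MYH11 embryos (4 arrays), which carry the Cbfb-MYH11 fusion on 1 Cbfb allele and an intact second allele, and WT littermates (4 arrays). The second cross, between Cbfb+/- parents, gave Cbfb-/- embryos (3 arrays), which lack both intact alleles, and Cbfb+/+ littermates (3 arrays). No drug or other treatment is named for any group, and the age was the same in all 4. Every title describes its array as a technical replicate, so the p-values below rest on array-to-array spread that need not include any difference between embryos or litters. Because whole blood was measured, fewer cells of a type and less RNA per cell cannot be told apart.

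GATA1 and GATA2 are zinc finger factors that bind the same short DNA sequence. In red cell development GATA2 acts in early progenitors, and GATA1 takes its place at many sites as the cells mature, an exchange known as the GATA switch. On DNA they work with a complex in which TAL1, or its close relative LYL1, binds the neighbouring E-box as a dimer with an E protein, LMO2 bridges TAL1 and the GATA factor, and LDB1 is the scaffold that joins these assemblies. ZFPM1, also called FOG1, is the cofactor that binds the GATA factors themselves. Cbfb is the partner of the Runx factors, and its fusion with MYH11 arises in acute myeloid leukaemia with inversion of a chromosome.

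RefSeq promoter windows (GRCm38.p6) of 250 bases before an annotated start were read for 6 of the 7 members, 10 windows in all, and Lmo2 was not among them. Windows of Gata1 and Gata2 are shown because the balance of these genes is described below, and the first Tal1 window because it holds both an isolated GATA motif and a paired motif. Each is written 5′ to 3′ on the strand of its gene. Capitals mark motif matches on either strand, namely GATAA, the E-box CANNTG, the Runx motifs TGTGGT and TGCGGT, and the paired motifs CTGNNNNNNNGATA and CTGNNNNNNNNGATA, which may overlap. The windows lie at chrX:7967911-7968160 on the minus strand (Gata1), chr6:88193641-88193890 and chr6:88198414-88198663 on the plus strand (Gata2) and chr4:115056176-115056425 on the plus strand (Tal1).

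Gata1: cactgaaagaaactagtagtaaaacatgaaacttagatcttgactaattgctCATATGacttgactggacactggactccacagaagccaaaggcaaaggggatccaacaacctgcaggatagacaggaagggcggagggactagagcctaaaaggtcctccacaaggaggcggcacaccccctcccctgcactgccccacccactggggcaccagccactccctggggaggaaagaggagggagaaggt
Gata2, first window: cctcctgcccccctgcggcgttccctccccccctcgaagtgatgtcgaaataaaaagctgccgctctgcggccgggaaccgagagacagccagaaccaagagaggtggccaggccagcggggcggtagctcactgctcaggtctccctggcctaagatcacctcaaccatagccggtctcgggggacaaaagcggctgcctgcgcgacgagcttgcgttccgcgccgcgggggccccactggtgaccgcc
Gata2, second window: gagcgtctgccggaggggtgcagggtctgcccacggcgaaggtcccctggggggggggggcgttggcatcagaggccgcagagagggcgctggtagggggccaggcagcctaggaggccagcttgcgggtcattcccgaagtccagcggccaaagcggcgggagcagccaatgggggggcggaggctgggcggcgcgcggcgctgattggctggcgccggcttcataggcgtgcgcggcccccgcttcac
Tal1, first window: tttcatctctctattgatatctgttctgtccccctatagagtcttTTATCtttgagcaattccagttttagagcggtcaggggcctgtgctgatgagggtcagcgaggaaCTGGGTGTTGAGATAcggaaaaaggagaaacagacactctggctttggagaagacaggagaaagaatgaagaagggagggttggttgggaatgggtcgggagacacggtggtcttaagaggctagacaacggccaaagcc

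The Gata1 window held 1 E-box, 198 bases before the start. Neither Gata2 window held a match. In the Tal1 window GATAA stood on the opposite strand 205 bases before the start, and CTGNNNNNNNNGATA began 140 bases before it. Of the 32851 windows of this length in the table, 22.6% held GATAA, 66.2% CANNTG, 14% TGTGGT, 5.1% TGCGGT, 2.19% CTGNNNNNNNGATA and 1.91% CTGNNNNNNNNGATA. A match describes the letters of the window and is not a bound site, and the windows leave out the enhancers that lie farther away.

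Values are the deposited log2 values, and a difference of 1 between arrays is a doubling of the signal. Of 45037 probe sets that are no array controls, 12190 reached a log2 value of 6 in at least 3 arrays and were tested. A probe set is said to have risen or fallen where its change had an adjusted p under 0.05 (limma, Benjamini-Hochberg over all 12190) and was at least 1.5-fold. Array medians lay between 4.27 and 4.46, and the number of arrays limits the precision. In the first cross the arrays of a genotype fell into pairs. Arrays 1 and 2, and arrays 3 and 4, differed by an SD of 0.11 to 0.28 over probe sets, against 0.40 to 0.75 between the pairs. Within each group of the second cross this SD was 0.20 to 0.22. Whether a pair of arrays, or all 3 arrays of a group in the second cross, shares 1 blood pool was not tested. The targeted gene Cbfb had 1 probe set, and where it lies relative to the altered part is not given in the sources used here. It read 8.44, 8.56, 6.91 and 7.06 on Cbfb+/MYH11 arrays 1 to 4 and 6.62, 6.57, 8.31 and 8.14 on the WT arrays. It read 7.03, 6.80 and 6.98 on the Cbfb-/- arrays and 6.52, 6.56 and 6.27 on the Cbfb+/+ arrays. It was thus higher in the mutant in array pair 1 and 2 of the first cross, lower in pair 3 and 4, and not lower in Cbfb-/-, so it did not check the labels, and every direction below rests on them.

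In Cbfb+/MYH11 blood Gata2, Lmo2 and Gata1 rose against WT littermates and no member fell. Gata2 was 11.4-fold and 17.2-fold higher by its probe sets, Lmo2 3.09-fold and Gata1 1.71-fold, while Zfpm1, Ldb1, Tal1 and Lyl1 were not called. In all, 4 of the 9 member probe sets rose and 0 fell. Of all tested probe sets 36% were called in this comparison, 30.4% upwards and 5.64% downwards. After quantile normalization 55.2% of all calls were upwards, against 84.3% of those counted here. Upward calls over all probe sets then came to 2134, against 3701 here. With that scaling 3 member probe sets rose, without Gata1. The median change was 0.55 over the member probe sets and 0.27 over all probe sets tested.

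Gata2 was the member that changed most. By probe set 1450333_a_at its log2 values were 9.94, 10.15, 9.99 and 9.95 on the Cbfb+/MYH11 arrays and 6.79, 6.80, 6.13 and 6.26 on the WT arrays. All 4 mutant arrays lay within a narrow band far above every WT array. The change was 3.51 (95% interval 3.03 to 4.00, adjusted p = 1.43e-07), and 0.221% of the tested probe sets rose at least as much. Probe set 1428816_a_at read 8.78, 8.83, 9.81 and 9.82 against 5.42, 5.30, 5.19 and 4.91. Here too the groups were far apart, with mutant arrays 3 and 4 above mutant arrays 1 and 2. Its change was 4.11 (3.54 to 4.68, adjusted p = 1.61e-07). This probe set passed the filter through the 4 Cbfb+/MYH11 arrays alone, with 0 other arrays at or above 6, so a difference in it was bound to be seen. The first probe set reached 6 on 8 arrays outside the mutant. Both probe sets changed more in the second array pair, by 3.78 against 3.25 and by 4.77 against 3.44.

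Gata1, which drives terminal red cell genes, rose less. Its log2 values were 10.64, 10.79, 10.43 and 10.42 on the Cbfb+/MYH11 arrays and 9.73, 9.97, 9.78 and 9.72 on the WT arrays. Every mutant array was above every WT array, with mutant arrays 1 and 2 the highest. The change was 0.77 (0.57 to 0.98, adjusted p = 2.65e-05), and 23.2% of the tested probe sets rose at least as much. When the arrays were quantile normalized again, which moved the median change of all probe sets from 0.27 to -0.03, the change of Gata1 was 0.52 (adjusted p = 0.00197), under the fold floor.

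Zfpm1, the cofactor of both GATA factors, was higher in the mutant by less than 1.5-fold. Probe set 1451046_at read 10.21, 10.41, 9.98 and 10.03 on the Cbfb+/MYH11 arrays and 9.65, 9.67, 9.57 and 9.54 on the WT arrays, groups that did not overlap. The change was 0.55 (0.34 to 0.76, adjusted p = 0.000395) and passed the fold floor, at 0.66, when each array was centred on its median. It also passed without Cbfb+/MYH11 array 3 (0.61) or array 4 (0.59). After quantile normalization it was 0.26 (adjusted p = 0.0716), no longer past the threshold on p. The 1423603_at probe set read 8.19, 8.27, 7.90 and 7.79 against 7.82, 7.95, 7.59 and 7.46, and its groups overlapped. Its change was 0.33 (0.05 to 0.61, adjusted p = 0.0390), and after quantile normalization it was -0.079, so this probe set gives no direction.

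Tal1 and Lyl1 are the basic helix-loop-helix members, which bind E-boxes. Tal1 read 11.40, 11.36, 10.89 and 10.86 on the Cbfb+/MYH11 arrays and 11.77, 11.84, 11.21 and 11.26 on the WT arrays. Each array pair was lower in the mutant, by 0.43 and 0.36, but the groups overlapped because arrays 1 and 2 were higher than arrays 3 and 4 in both genotypes. The change was -0.39 (-0.75 to -0.04, adjusted p = 0.0522). With the array number as a block the adjusted p was 0.000976, and the size stayed under the fold floor. After quantile normalization it was -0.58 (adjusted p = 0.0168), again under the floor. Lyl1 read 9.84, 9.88, 9.52 and 9.55 against 9.73, 9.86, 9.34 and 9.42. Its groups overlapped, and the change of 0.11 (-0.16 to 0.37, adjusted p = 0.452) became -0.19 after quantile normalization.

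Lmo2, the LIM-only protein that bridges TAL1 and the GATA factors, rose in every array of the mutant. It read 10.43, 10.47, 10.43 and 10.42 on the Cbfb+/MYH11 arrays and 8.80, 9.08, 8.71 and 8.63 on the WT arrays. The mutant arrays hardly differed from each other and all lay above the WT arrays. The change was 1.63 (1.41 to 1.85, adjusted p = 1.36e-07), with 1.51 and 1.75 in the array pairs, and 3.21% of the tested probe sets rose at least as much. Ldb1, the scaffold that carries LMO2, read 7.85, 7.86, 7.72 and 7.77 against 7.10, 7.35, 7.42 and 7.25. Its groups did not overlap either, yet the change of 0.52 (0.32 to 0.72, adjusted p = 0.000379) was under the fold floor, and it came to 0.63 with centred arrays and to 0.13 (adjusted p = 0.234) after quantile normalization.

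The groups of 6 member probe sets did not overlap in this comparison, and 51.6% of all tested probe sets had groups that did not. When each array pair was averaged to 1 value, as if it were 1 pool, 0 members were called. The adjusted p was then 0.0617 and 0.0802 for the Gata2 probe sets, 0.0922 for Lmo2 and 0.139 for Gata1, and 7 probe sets of the whole array were called. With the putative pools as a random block the same 4 member probe sets were called, with adjusted p from 4.13e-05 for the second Gata2 probe set to 0.00724 for Gata1.

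**Figure D1:**
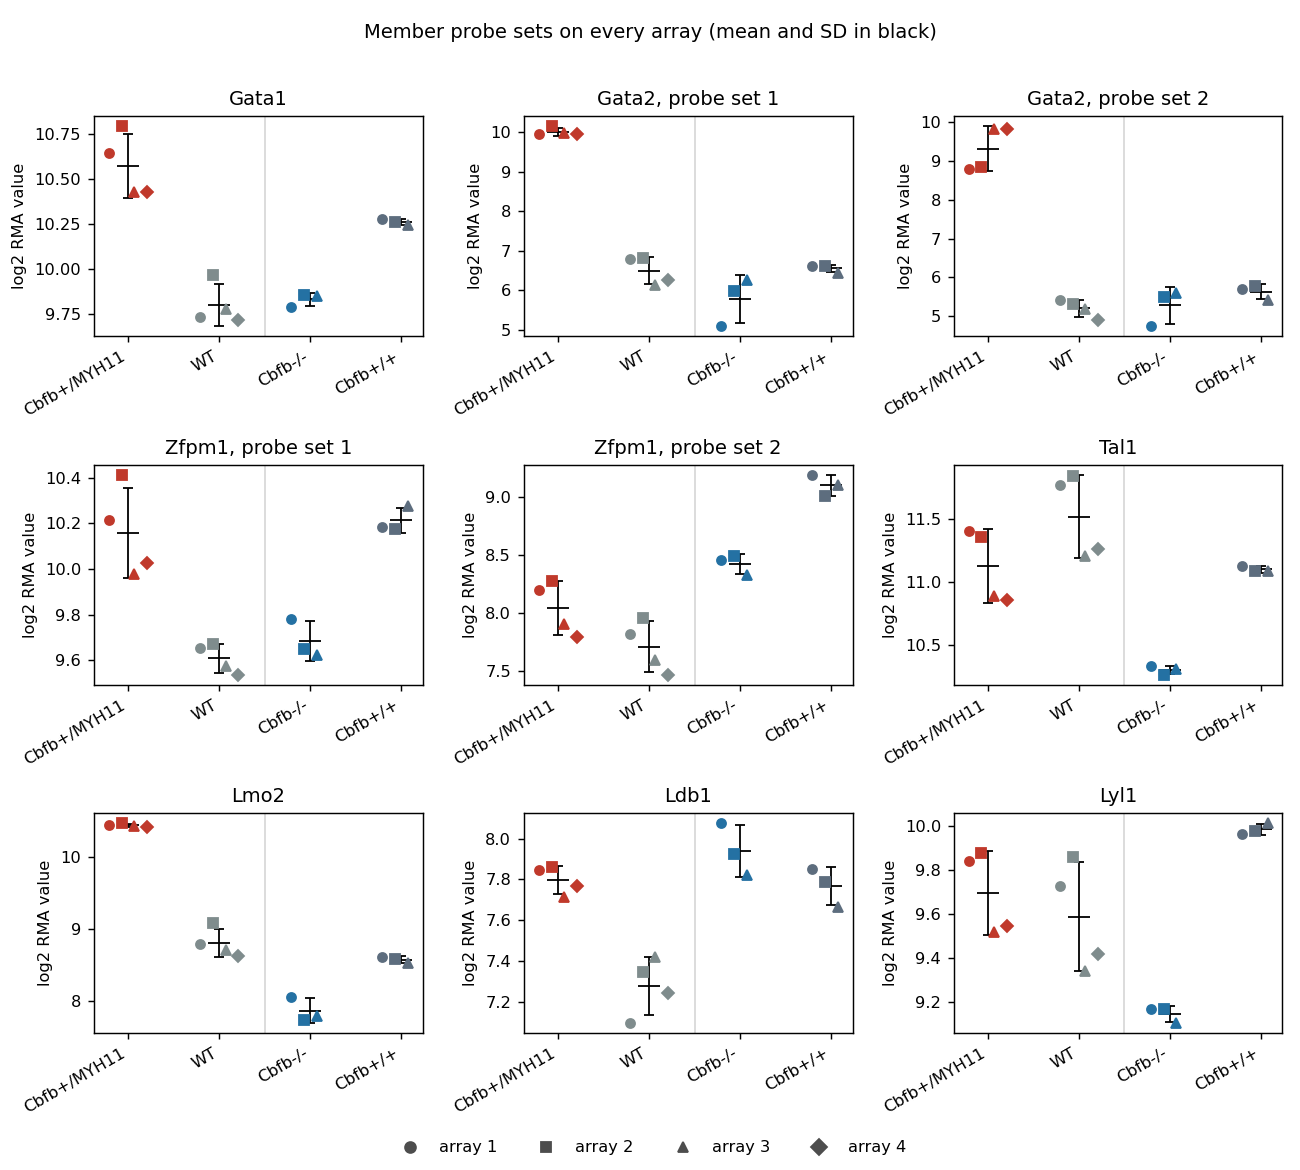
Log2 values of the 9 member probe sets on each of the 14 arrays, 1 panel per probe set, with the 4 groups on the horizontal axis, 1 symbol per array number, and the mean and SD in black. The vertical axes differ between panels and do not start at 0; Gata2 probe set 1 is between 9.94 and 10.15 on the Cbfb+/MYH11 arrays and at most 6.80 elsewhere, and Lmo2 is between 10.42 and 10.47 against at most 9.08.

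The balance of Gata2 to Gata1 was taken on each array as the log2 value of Gata2 (1450333_a_at) minus that of Gata1. Since probe sets differ in brightness, its size has no meaning of its own and only its shift between groups is read, and as a score over chosen members it has no p. It was -0.70, -0.64, -0.44 and -0.47 on the Cbfb+/MYH11 arrays and -2.94, -3.16, -3.65 and -3.46 on the WT arrays. All mutant arrays lay above all WT arrays. The means were -0.56 ± 0.13 and -3.30 ± 0.31 (SD, n = 4 each), a shift of 2.74 towards Gata2, or 6.69-fold in the ratio. The shift was 2.39 in array pair 1 and 2 and 3.10 in pair 3 and 4, and 3.33 with the other Gata2 probe set. Gata1 rose in these arrays too, so the shift comes from a Gata2 change larger than that of Gata1.

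In the Cbfb-/- cross the balance was -4.71, -3.88 and -3.60 in the mutant and -3.67, -3.66 and -3.80 in the Cbfb+/+ littermates. Cbfb-/- array 3 lay above all littermates and arrays 1 and 2 below them, so the groups overlapped. The shift was -0.35, against SDs of 0.58 and 0.08 (n = 3 each). Without Cbfb-/- array 1 it was -0.03, and with the other Gata2 probe set it was 0.075. A shift of the balance was therefore not resolved in this cross.

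Within the helix-loop-helix pair, the balance of Tal1 to Lyl1 was 1.57, 1.48, 1.38 and 1.32 on the Cbfb+/MYH11 arrays and 2.05, 1.98, 1.87 and 1.84 on the WT arrays. The mutant arrays were lower on every array, with a shift of -0.50 that was -0.49 and -0.51 in the array pairs. It was 1.17, 1.10 and 1.21 in Cbfb-/- and 1.17, 1.11 and 1.07 in Cbfb+/+, values that overlapped with a shift of 0.04. This balance was chosen after its values were seen.

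**Figure D2:**
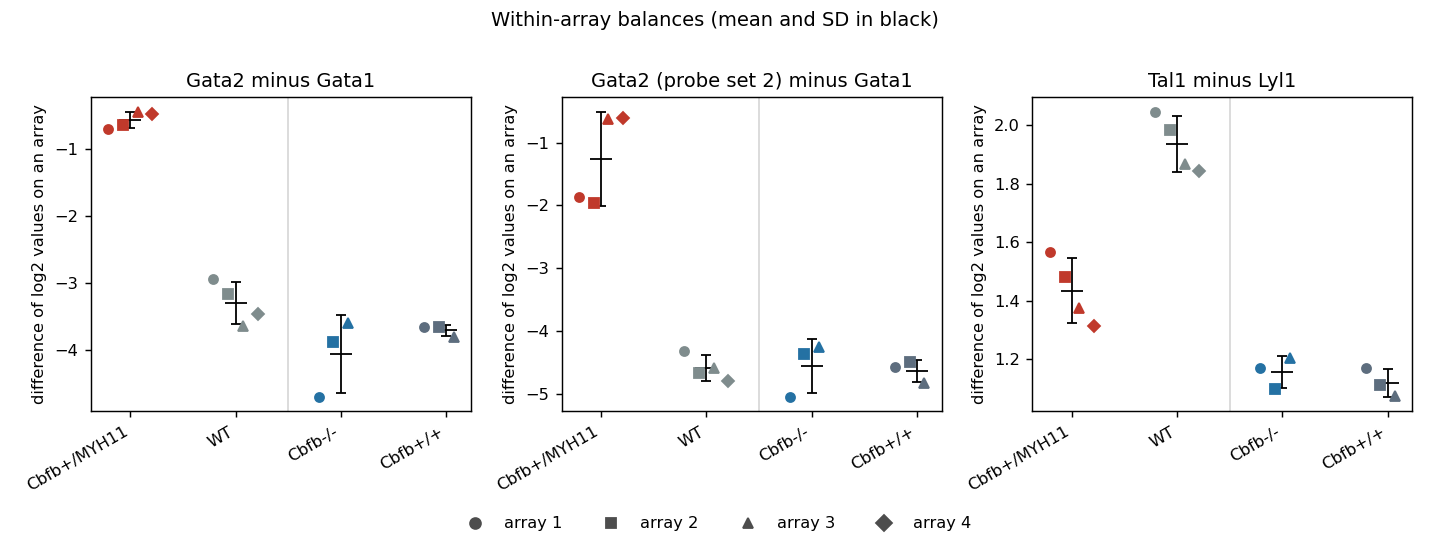
Differences of log2 values within each array for Gata2 minus Gata1 with each Gata2 probe set and for Tal1 minus Lyl1, by group, with the mean and SD in black. For Gata2 minus Gata1 the Cbfb+/MYH11 arrays lie between -0.70 and -0.44 and all other arrays at or below -2.94.

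In Cbfb-/- blood, members fell where they changed at all. Lyl1 was 1.79-fold, Tal1 1.74-fold, Gata2 1.72-fold, Lmo2 1.63-fold and Zfpm1 1.60-fold lower than in Cbfb+/+ littermates, and none rose. In all, 5 of the 9 member probe sets fell and 0 rose. Of all tested probe sets 27.1% were called in this comparison, 19.8% upwards and 7.31% downwards. After quantile normalization 51.3% of all calls were upwards, against 73.0% of those counted here. Downward calls over all probe sets then came to 1604, against 891 here. With that scaling 7 member probe sets fell, with Gata1 and the other Zfpm1 probe set added. The median change was -0.68 over the member probe sets and 0.13 over all probe sets tested, so the members lay on the side to which fewer probe sets went.

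Lyl1 had the largest fall, with an interval that overlapped those of the other members that fell. It read 9.17, 9.17 and 9.10 on the Cbfb-/- arrays and 9.96, 9.98 and 10.01 on the Cbfb+/+ arrays, with a wide gap between the groups. The change was -0.84 (-1.14 to -0.53, adjusted p = 0.00101). Tal1, its relative, read 10.34, 10.27 and 10.31 against 11.13, 11.09 and 11.09. Its groups were as clearly apart, and the change was -0.80 (-1.21 to -0.39, adjusted p = 0.00622). Falls at least as large were seen in 3.52% and 4.02% of the tested probe sets.

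Lmo2 read 8.07, 7.75 and 7.80 on the Cbfb-/- arrays and 8.62, 8.59 and 8.53 on the Cbfb+/+ arrays. All mutant arrays were below the littermates, and the change was -0.71 (-0.96 to -0.45, adjusted p = 0.000951). Ldb1 read 8.08, 7.92 and 7.82 against 7.85, 7.79 and 7.67. Its groups overlapped, and the change of 0.17 (-0.05 to 0.40, adjusted p = 0.186) became -0.052 after quantile normalization.

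Of the GATA factors, Gata2 (1450333_a_at) read 5.08, 5.97 and 6.25 on the Cbfb-/- arrays and 6.61, 6.60 and 6.44 on the Cbfb+/+ arrays. The groups did not overlap, but Cbfb-/- array 1 lay well below the other mutant arrays. The change was -0.78 (-1.34 to -0.23, adjusted p = 0.0275). Without Cbfb-/- array 1 it was -0.44 (adjusted p = 0.106), and the call was also lost without Cbfb+/+ array 1, 2 or 3, at adjusted p = 0.0715, 0.0720 and 0.0520. The other probe set, 1428816_a_at, read 4.74, 5.49 and 5.59 against 5.71, 5.77 and 5.41, under the level of 6 on all of these arrays. Its groups overlapped and its change of -0.35 (-1.01 to 0.30, adjusted p = 0.350) was not called.

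Gata1 read 9.79, 9.86 and 9.85 on the Cbfb-/- arrays and 10.28, 10.26 and 10.25 on the Cbfb+/+ arrays. Every mutant array was below every littermate, and neither group spread by more than 0.1. The change was -0.43 (-0.66 to -0.20, adjusted p = 0.00849), under the floor, and -0.62 after quantile normalization, past it. For Zfpm1, probe set 1423603_at read 8.46, 8.49 and 8.32 against 9.20, 9.01 and 9.10. This probe set fell, by 0.68 on the log2 scale (SE 0.15, adjusted p = 0.00422). Probe set 1451046_at read 9.78, 9.65 and 9.62 against 10.19, 10.17 and 10.28. It was lower on every mutant array too, with a change of -0.53 (-0.77 to -0.29, adjusted p = 0.00346) that stayed under the floor and came to -0.70 after quantile normalization.

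The groups of 7 member probe sets did not overlap in this comparison, and 69.9% of all tested probe sets had groups that did not. If the 3 arrays of each group share 1 pool, 1 pool stood against 1 pool. With the putative pools as a random block 0 members were called, and the adjusted p of the 5 probe sets that had been called lay between 0.136 for Lyl1 and 0.578 for Gata2; 41 probe sets of the whole array were then called.

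The effect of the fusion differed from that of the loss of Cbfb for most members. The change in Cbfb+/MYH11 against WT minus the change in Cbfb-/- against Cbfb+/+ was 4.30 (3.56 to 5.03, adjusted p = 2.86e-06) and 4.46 (3.59 to 5.33, adjusted p = 7.35e-06) for the Gata2 probe sets. It was 2.34 (2.00 to 2.67, adjusted p = 7.12e-07) for Lmo2. It was 1.20 (0.89 to 1.51, adjusted p = 6.71e-05) for Gata1. These genes were higher with the fusion and lower, or not called, without Cbfb.

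Members that were not called in Cbfb+/MYH11 differed between the crosses as well. The difference was 1.08 (0.76 to 1.40, adjusted p = 0.000196) and 1.02 (0.59 to 1.44, adjusted p = 0.00240) for the Zfpm1 probe sets. For Lyl1 it was 0.95 (0.54 to 1.35, adjusted p = 0.00267). For Tal1 it was 0.41 (-0.13 to 0.95, adjusted p = 0.264), and for Ldb1 0.35 (0.05 to 0.65, adjusted p = 0.0867), neither of them called. In all, 7 of 9 member probe sets were called, all with a positive difference. Of all tested probe sets 20.6% were called, 14.7% in that direction and 5.89% in the other. A positive difference compares changes and not levels. Lyl1 was not called with the fusion and fell without Cbfb, and Zfpm1 1423603_at averaged 8.04 in Cbfb+/MYH11 and 8.42 in Cbfb-/-. With the putative pools as a random block, the calls left were those of both Gata2 probe sets and of Lmo2, 3 in all, and with each pool averaged to 1 value, 0.

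**Figure D3:**
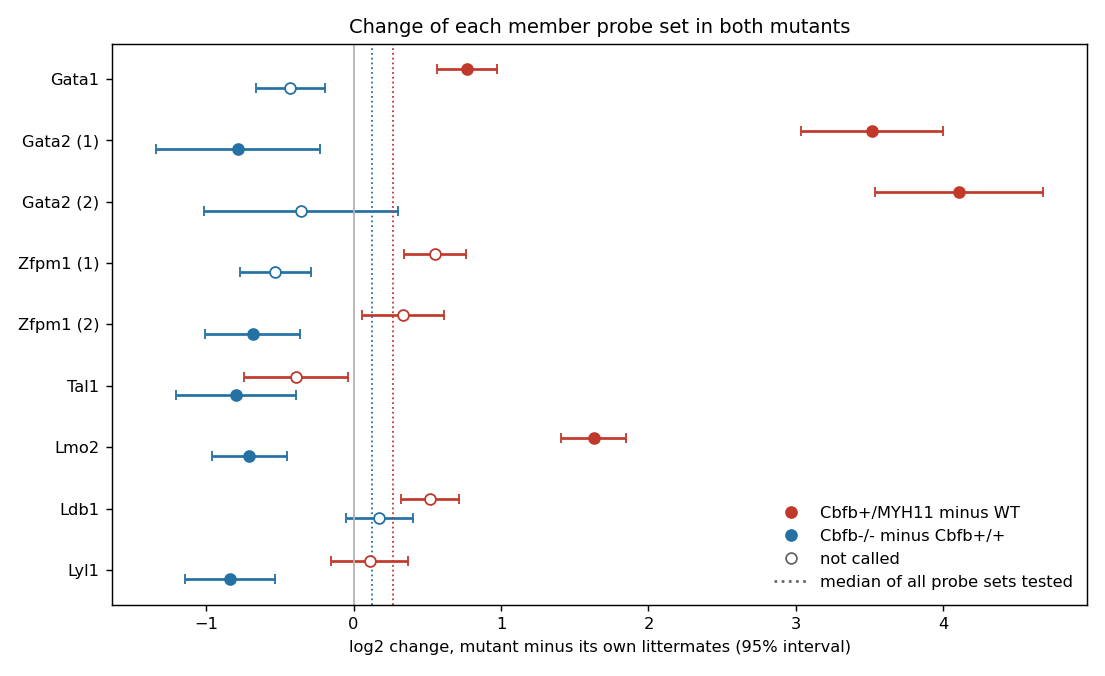
Log2 change of each member probe set in Cbfb+/MYH11 against WT and in Cbfb-/- against Cbfb+/+, with 95% intervals, filled where called; dotted lines mark the median of all probe sets tested. (1) and (2) stand for 1450333_a_at and 1428816_a_at of Gata2 and for 1451046_at and 1423603_at of Zfpm1. Gata2 lies at 3.51 and 4.11 with the fusion, and Lyl1 at -0.84 without Cbfb.

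The littermate controls of both crosses were compared to see how far the members differ without a mutation. Zfpm1 was the only member called in Cbfb+/+ against WT, by both probe sets, with changes of 0.61 (adjusted p = 0.00121) and 1.40 (adjusted p = 4.80e-05). Of all tested probe sets 12% were called, 5.68% higher and 6.33% lower. The former was under the fold floor after quantile normalization (0.58), without WT array 4 (0.58) and without Cbfb+/+ array 3 (0.57). Gata2 differed by 0.06 and 0.42, Gata1 by 0.46, Tal1 by -0.42, Lmo2 by -0.23, Ldb1 by 0.49 and Lyl1 by 0.40, all without a call. With arrays 1 and 2 of the first cross alone Tal1 was called, at -0.71 (adjusted p = 3.16e-06), and with arrays 3 and 4 alone Lyl1 was called, at 0.60 (adjusted p = 1.23e-05). The cross, the strain and the hybridization of the controls cannot be told apart.

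Set in order over the 4 groups, the Gata2 probe sets were highest in Cbfb+/MYH11 and the other 3 groups overlapped with their neighbours. For Gata1 the order was Cbfb+/MYH11, Cbfb+/+, Cbfb-/- and WT, of which Cbfb-/- and WT overlapped. Lmo2 ran from Cbfb+/MYH11 through WT and Cbfb+/+ to Cbfb-/-, and no neighbours overlapped, although the lowest WT array (8.63) was next to the highest Cbfb+/+ array (8.62). Lyl1 was highest in Cbfb+/+ and lowest in Cbfb-/-, with Cbfb+/MYH11 and WT overlapping between them. Tal1 was lowest in Cbfb-/-. Its Cbfb+/MYH11 arrays overlapped with both WT and Cbfb+/+, but the lowest WT array (11.21) lay above the highest Cbfb+/+ array (11.13). Ldb1 was lowest in WT and overlapped among the others. Both Zfpm1 probe sets had their highest mean in Cbfb+/+ and their lowest in WT. For 1451046_at Cbfb+/MYH11 overlapped with Cbfb+/+, and Cbfb-/- with WT. For 1423603_at the lowest Cbfb-/- array (8.32) lay above the highest Cbfb+/MYH11 array (8.27), and Cbfb+/MYH11 overlapped with WT.

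Among genes that are no members, the 5 with the highest correlation over the 14 arrays were listed for Gata2, Gata1 and Lmo2. These arrays share their groups and array pairs, so the correlations describe the pattern and carry no test. The Gata2 pattern (1450333_a_at) was followed most closely by Setd3 (r = 0.98), Alox5 (r = 0.979), Adcy7 (r = 0.978), Mbnl1 (r = 0.978) and Hdc (r = 0.977). Alox5 is the lipoxygenase that starts leukotriene synthesis and averaged 8.97 in Cbfb+/MYH11 and 6.35 in WT. Hdc, which makes histamine, averaged 8.18 and 5.10. Gata1 was followed by Kcnn4 (r = 0.974), Slc30a10 (r = 0.966), Mst1 (r = 0.964), Ppox (r = 0.962) and Art4 (r = 0.956). Ppox is an enzyme of heme synthesis and averaged 10.60 in Cbfb+/MYH11, 9.67 in WT, 9.62 in Cbfb-/- and 10.10 in Cbfb+/+. For Lmo2 the genes were Slc2a1 (r = 0.991), Mbnl1 (r = 0.990), Eef2k (r = 0.990), Cyth3 (r = 0.989) and Degs1 (r = 0.988). Slc2a1, a glucose transporter, averaged 11.72, 10.33, 9.31 and 10.13 in the same order of groups.

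Related genes were read at 1 probe set per gene, the brightest, with 7392 genes tested. In Cbfb+/MYH11 36.1% of these were called, 30.5% upwards and 5.63% downwards, and in Cbfb-/- 26.2%, 19.5% upwards and 6.66% downwards. Of 42 listed partners and family members, 32 were tested, and 14 rose and 1 fell in Cbfb+/MYH11, with a median change of 0.54 against 0.26 for all genes. Rcor1, a corepressor that binds GFI1B, rose by 1.18 (adjusted p = 5.30e-06). Rbbp7 (1.40, adjusted p = 6.18e-05), Mta2 (0.84, adjusted p = 1.85e-05) and Rbbp4 (0.61, adjusted p = 0.000765) belong to the NuRD complex that FOG1 recruits. Of its other listed genes, Hdac1 (0.80) and Mbd3 (0.70) rose, and Chd4 (0.05), Mta1 (0.66) and Hdac2 (0.56) were not called. After quantile normalization Rbbp7 (1.15) stayed past the fold floor, and Mta2 (0.48), Rbbp4 (0.42), Hdac1 (0.40) and Mbd3 (0.47) did not. Rbbp7 rose in Cbfb-/- too, by 0.98. Klf1, an erythroid factor often bound beside GATA1, rose by 0.86 (adjusted p = 2.94e-05), and Ssbp3, which stabilizes LDB1, fell by 0.86 (adjusted p = 0.000219). After quantile normalization 4 of the 32 rose and 3 fell. Over all genes 1290 then rose and 1041 fell, against 2255 and 416 before.

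In Cbfb-/- 12 of these 32 partners rose and 2 fell, with a median change of 0.47 against 0.13 for all genes. Those that fell were Gfi1b (-0.91, adjusted p = 0.00386), a repressor of erythroid and megakaryocytic genes, and the corepressor Cbfa2t3 (-0.80, adjusted p = 0.00218), which binds the TAL1 complex. Mta1 rose by 1.88 (adjusted p = 0.00225), and Kdm1a, a histone demethylase, changed by 0.53 (adjusted p = 0.000782), under the floor. The GATA relatives Gata3, Gata4, Gata5 and Gata6, and also Zfpm2, Lmo1, Ldb2, Tal2, Fli1 and Erg, did not pass the filter and were not tested. Their group means lay between 2.74 for Gata3 in Cbfb+/+ and 6.02 for Gata6 in WT.

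Of 24 tested genes reported as activated by GATA1 in red cells, 7 rose (29.2%) and 2 fell (8.33%) in Cbfb+/MYH11. Over all genes tested 30.5% rose and 5.63% fell, so the rises of the list were near that share. The median change of the list was 0.14, which was -0.12 after quantile normalization. Hemgn, a nuclear protein of erythroid cells, rose by 2.04 (adjusted p = 1.45e-07). Alad (1.01, adjusted p = 1.34e-07) and Uros (0.98, adjusted p = 4.68e-07), enzymes of heme synthesis, rose as well. The other heme enzymes tested on this list did not. Urod changed by 0.47, Alas2 by -0.23 and Fech by -0.53, none of them called. After quantile normalization Fech was -0.63 (adjusted p = 0.000181), past the fold floor. Btg2 (1.14, adjusted p = 8.69e-07), an antiproliferative gene, and Klf1 rose too. Tspo2, a cholesterol-binding protein of late erythroblasts, fell by 2.59 (adjusted p = 6.66e-07).

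In Cbfb-/- 0 of these 24 rose and 5 fell (20.8%), against 19.5% and 6.66% of all genes tested. Their median change was -0.33. Tspo2 fell by 2.18 (adjusted p = 9.36e-05) and Xpo7, a nuclear exporter, fell by 0.99 (adjusted p = 0.00118). Slc25a37, the mitochondrial iron importer (-0.55, adjusted p = 0.000908), and Alad (0.47, adjusted p = 0.000803) were under the fold floor.

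Of 11 tested genes reported as repressed by GATA1, 6 rose and 1 fell in Cbfb+/MYH11, but 3 of the 6 (Myb, Spi1 and Hhex) had passed the filter only through the mutant arrays, so the count is no support. Csf2rb, the shared beta chain of several cytokine receptors, rose by 4.07 (adjusted p = 6.72e-12), and Myc, a growth factor-responsive transcription factor, rose by 1.07 (adjusted p = 1.13e-06). Ccnd2, a cyclin, rose by 1.81 (adjusted p = 0.0193), but its groups overlapped, and the change was 2.89 in array pair 1 and 2 and 0.73 in pair 3 and 4. Myb (1.35, adjusted p = 9.11e-06), Spi1 (1.38, adjusted p = 0.000198) and Hhex (1.10, adjusted p = 0.00209) are progenitor or myeloid factors. In Cbfb-/- 2 of the 11 rose, Ccnd2 (2.49, adjusted p = 0.0134) and Vim (1.97, adjusted p = 0.0180). These were 18.2% of the list, against 19.5% of all genes tested. Itga2b (-1.66, adjusted p = 0.000853), an integrin of platelets, and Myb (-1.57, adjusted p = 8.49e-05) fell. Myb averaged 4.09 in Cbfb-/- and 5.66 in Cbfb+/+, under the level of 6 on every array of both groups.

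Of 11 tested genes reported as GATA2 targets in progenitors and mast cells, 7 rose and 0 fell in Cbfb+/MYH11, but 6 of the 7 had passed the filter only through the mutant arrays. They include Ms4a2 (4.83, adjusted p = 7.18e-09), a chain of the IgE receptor, Hdc (3.08, adjusted p = 9.26e-08), Cpa3 (2.59, adjusted p = 4.95e-08), a protease of mast cell granules, Mitf (2.37, adjusted p = 3.78e-06) and Spi1. Cebpa, a granulocytic factor, had passed through other groups and rose by 2.64 (adjusted p = 3.63e-07). In Cbfb-/- 0 of the 11 rose, and Cpa3 (-0.78, adjusted p = 0.00446) and Cebpa (-0.74, adjusted p = 0.0186) fell. Cpa3 averaged 4.01 in Cbfb-/- and 4.79 in Cbfb+/+, under the level of 6 on every array of both groups.

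**Figure D4:**
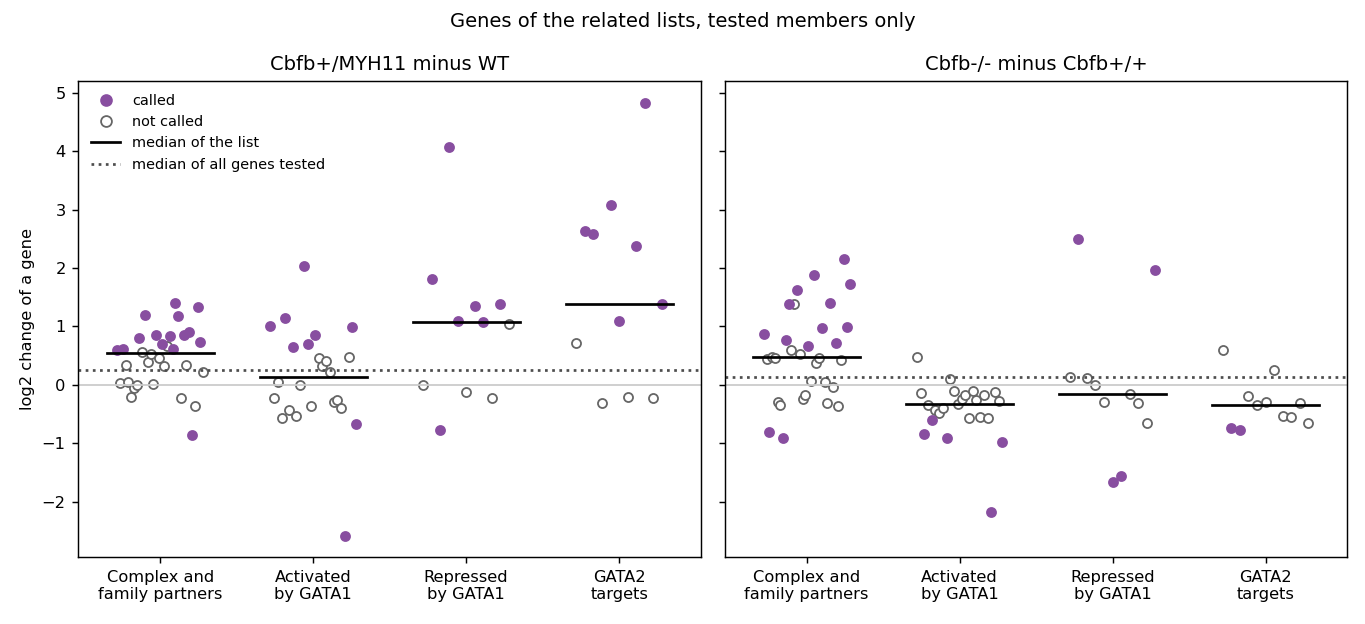
Log2 changes of the tested genes of 4 related lists in Cbfb+/MYH11 against WT (left) and Cbfb-/- against Cbfb+/+ (right), filled where called, with the median of each list as a bar and the median of all genes tested as a dotted line. On the left the GATA2 targets reach 4.83 (Ms4a2), though 6 of the 7 that rose passed the filter through the mutant arrays alone.

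Defining markers of the cells that blood could hold were read beside these changes, on the log2 scale of the summed linear signal of a list. All 8 erythroid markers on the array, among them Hba-x, Hbb-bh1 and Hbb-y, the embryonic globins, reached 6 on every array of every group, and the summed level ran from 16.33 to 16.45 over the 14 arrays. This sum is carried by the globins, which averaged 13.98 to 14.54 per group, close to the highest value of any probe set (14.55), and so shows little of the dimmer markers. Of the 8 markers, 2 rose with the fusion (25%, against 30.5% of all genes tested) and 0 fell. Tfrc, the transferrin receptor, rose by 0.99 (adjusted p = 2.37e-06), and Epor, the erythropoietin receptor, rose by 0.65 (adjusted p = 0.000695), or 0.32 (adjusted p = 0.0911) after quantile normalization. In Cbfb-/- 0 of the 8 were called. The part of these erythroid changes in the member results was not tested. The labelled tissue thus held red cell transcripts throughout.

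Some mast cell and basophil markers rose with the fusion, as Gata2 did, and most did not reach the level of 6. The summed level of the list was 10.12 to 10.73 on the Cbfb+/MYH11 arrays, 7.84 to 8.11 in WT, 7.50 to 7.68 in Cbfb-/- and 7.85 to 7.95 in Cbfb+/+. Of the 11 markers, 4 (Ms4a2, Cpa3, Hdc and Cd200r3) reached 6 on every Cbfb+/MYH11 array, and all 4 rose, having passed the filter only through these arrays. The other 7 were under 6 there on every array and not tested. Among these, Fcer1a averaged 2.82 in Cbfb+/MYH11 and 3.09 in WT, Mcpt8 4.26 and 4.72, and Kit 4.61 and 5.12. The summed level therefore follows the 4 bright genes, and the median change over all 11 was -0.056. In the other groups all 11 were under 6 on every array. The part of such cells in the change of Gata2 was not tested.

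Most platelet and macrophage markers fell in both mutants. Of the 9 tested platelet markers 6 fell with the fusion and 9 without Cbfb, and the same counts held for the 9 tested macrophage markers. These were 66.7% and 100% of each list, against 5.63% and 6.66% of all genes tested. The platelet sum was 10.72 to 11.09 in Cbfb+/MYH11 against 10.87 to 12.40 in WT, where arrays 1 and 2 (12.16 and 12.40) stood above arrays 3 and 4 (10.91 and 10.87), and the groups overlapped. It was 9.98 to 10.03 in Cbfb-/- against 11.84 to 11.89 in Cbfb+/+. Pf4, a platelet chemokine, fell by 3.44 (adjusted p = 3.17e-06) and by 1.45 (adjusted p = 0.00969). The macrophage sum was 9.85 to 10.17 in Cbfb+/MYH11 against 9.56 to 11.65 in WT, again with overlap, and 8.99 to 9.14 in Cbfb-/- against 11.03 to 11.08 in Cbfb+/+. With the fusion its direction depended on the array pair. On arrays 1 and 2 it was 9.85 and 9.85 against 11.43 and 11.65 in WT, and on arrays 3 and 4 10.17 and 10.17 against 9.58 and 9.56. Of the macrophage markers 7 fell and 0 rose in pair 1 and 2, and 6 fell and 3 rose in pair 3 and 4. Of the platelet markers 7 fell and 0 rose in pair 1 and 2, and 6 fell and 2 rose in pair 3 and 4. Over all 7392 genes tested, 564 fell and 2735 rose in pair 1 and 2, and 476 fell and 1819 rose in pair 3 and 4. Megakaryocytes carry GATA1, TAL1 and ZFPM1 themselves, and the part of these cells in the falls of Tal1, Lyl1, Lmo2, Gata2 and Zfpm1 in Cbfb-/- was not tested.

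Transcripts of other tissues were present unevenly. The neural sum was 8.94 to 10.28 in Cbfb+/MYH11, 8.29 to 8.74 in WT, 10.60 to 10.81 in Cbfb-/- and 8.19 to 8.37 in Cbfb+/+. For liver and visceral endoderm it was 8.40 to 10.07, 8.78 to 12.37, 12.22 to 12.35 and 10.93 to 10.94 in the same order. Within WT the liver markers split by array pair, at 12.37 and 12.34 on arrays 1 and 2 and 8.78 and 8.86 on arrays 3 and 4. Cbfb+/MYH11 split the other way, at 8.51 and 8.40 on arrays 1 and 2 and 10.04 and 10.07 on arrays 3 and 4. The mutant thus lay below WT in pair 1 and 2 and above it in pair 3 and 4. The neural sum of Cbfb+/MYH11 split too, at 8.96 and 8.94 on arrays 1 and 2 and 10.24 and 10.28 on arrays 3 and 4. Endothelial markers were mostly under 6, with at least 9 of 12 on every array of each group, and trophoblast markers likewise, with 6 of 7. The part of such tissue in the member changes was not tested.

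**Figure D5:**
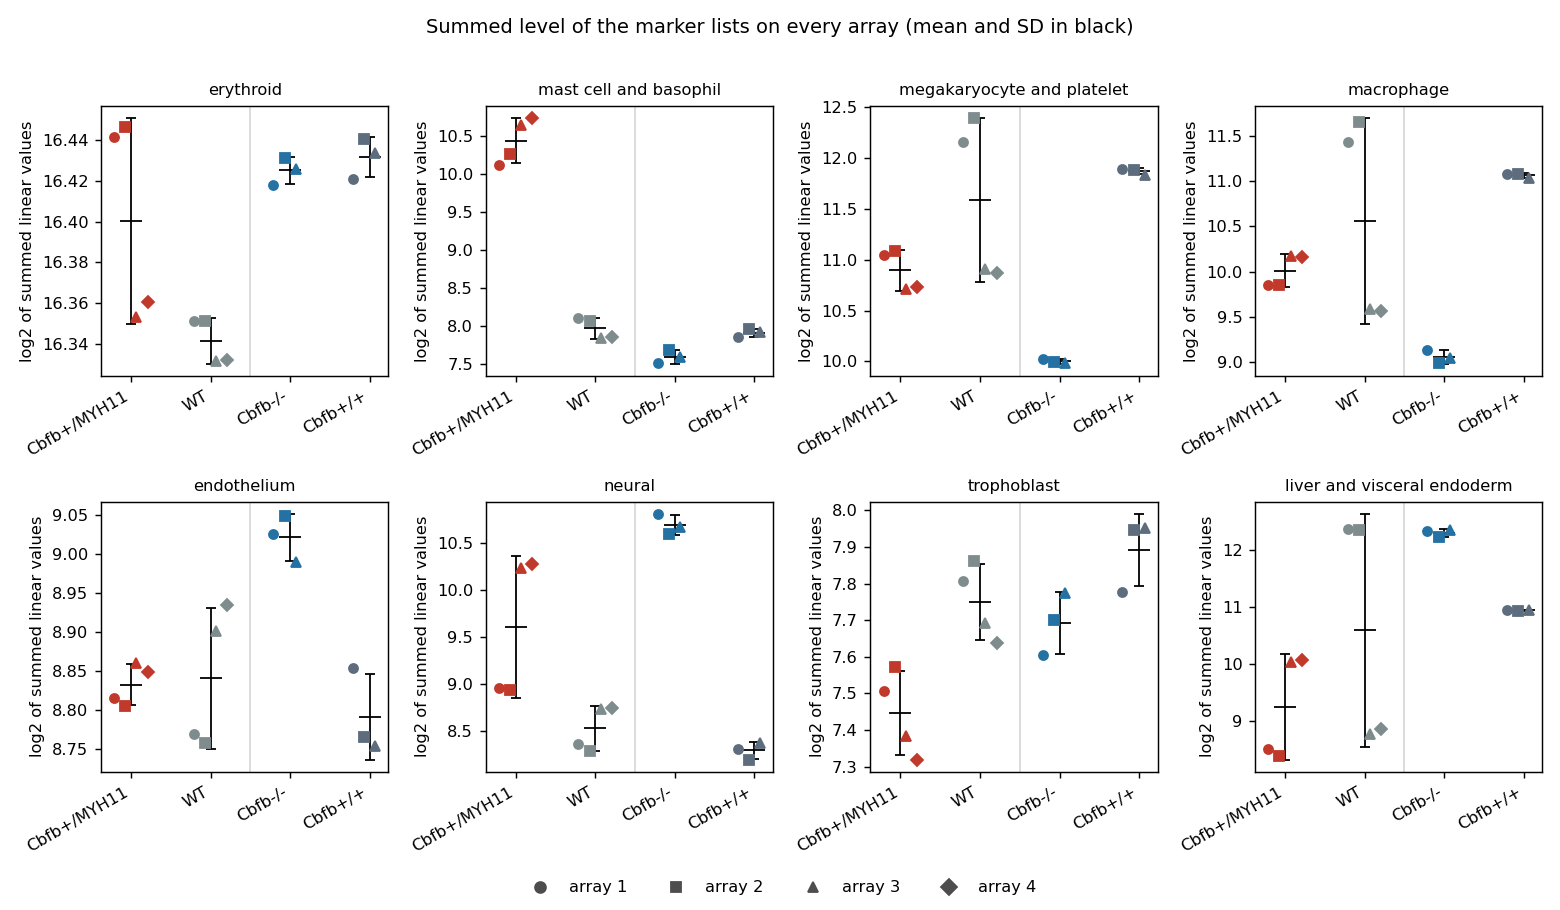
Summed level (log2 of the summed linear values) of 8 marker lists on each array, by group, with the mean and SD in black and vertical axes that differ between panels. The mast cell and basophil sum is at least 10.12 on the Cbfb+/MYH11 arrays and at most 8.11 on all others, while 7 of its 11 genes are under 6 on every array; the erythroid sum, carried by the globins, stays between 16.33 and 16.45.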

How the data were processed

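Per the submitters' processing notes, the deposited log2 values come from RMA as run in Affymetrix Expression Console, with versions not given in the sources used here. They were used unchanged, from 14 arrays in 4 groups taken from the titles, and 0 columns belonged to other series. RMA sets all arrays to one distribution of probe signal, so changes are relative to the rest of the array.

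Gene names come from the platform annotation, in which 34958 probe sets carried 1 symbol, 932 several and 9160 none. The filter asked for 3 arrays at or above a log2 value of 6. Group means were fitted with limma 3.58.1 in R 4.3.3, with 10 residual and 2.70 prior degrees of freedom, and the fit was tested on simulated data. The simulated noise was independent between arrays, whereas the arrays here had a correlation of 0.77 within putative pools. The simulation therefore does not cover arrays that share a pool. The members and gene lists were chosen with earlier results of these data known. Named genes are all members, the 5 genes most like Gata2, Gata1 and Lmo2, and defining markers. To these come up to 6 (fusion) and 4 (null) genes per related list with the smallest adjusted p. Listed genes of heme synthesis and of the NuRD complex were also named beside those so chosen.

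Arrays of one number in the labels deviated together in the first cross (r = 0.52, 0.41, 0.50 and 0.50 over probe sets) but not in the second (0.02, 0.01 and 0.03). Mutant and WT arrays of unlike number in the same pair did so as well, with r = 0.45 and 0.42 in pair 1 and 2 and 0.48 and 0.51 in pair 3 and 4. Between different pairs r lay from -0.52 to -0.44. The shared deviation thus followed the array pair and not the number. Alternatives were other scaling, filters, probe set rules, blocks, putative pools, and leaving out each array.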

Additional observations from a re-analysis of the deposited data

Results flagged for a closer look

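For 7 member probe sets the change in Cbfb+/MYH11 against WT and the change in Cbfb-/- against Cbfb+/+ differed in a test of the difference itself (limma, adjusted over all tested probe sets). The difference on the log2 scale was 4.30 and 4.46 for the probe sets of Gata2, 2.34 for Lmo2 and 1.20 for Gata1. It was 1.08 and 1.02 for those of Zfpm1, and 0.95 for Lyl1. The second Gata2 probe set had passed the filter through the Cbfb+/MYH11 arrays alone, so its difference was bound to be seen. Each difference was positive, and for Zfpm1 and Lyl1 no change was called with the fusion itself. Without a block for putative pools these p-values rest on the spread between arrays that the labels call technical replicates. No member had a single array far from the others of its group in the groups of 4.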

How the results depend on the processing

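Of 920 member values under alternatives, 865 kept their direction and their side of the threshold, 38 lost a call, 11 gained one and 6 changed direction. Many alternatives leave the estimate itself unchanged, such as another filter or leaving out an array of the other cross. The count therefore does not measure how firm the calls are. Averaging to 6 putative pools left 0 member calls in each of the 4 comparisons. With the pools as a random block, 0 members were called in Cbfb-/- against Cbfb+/+, 3 in the difference and 1 between the wild types. The wild types also gave 1 call after quantile normalization, and 1 to 2 when an array was left out, 1 without WT array 4 or Cbfb+/+ array 3. The replicate block gave 4 member calls with the fusion, 5 without Cbfb and 7 in the difference, and changed no call. The balance of Gata2 to Gata1 with the fusion shifted by 3.33 with the second Gata2 probe set, 3.04 with their mean, 2.39 in array pair 1 and 2, 3.10 in pair 3 and 4, and 2.63 to 2.86 when an array was left out; without Cbfb it was 0.075 with the second probe set.

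Quantile normalization turned Zfpm1 1423603_at (-0.079) and Lyl1 (-0.19) with the fusion, Ldb1 (-0.052) without Cbfb, and the medians with the fusion of genes activated by GATA1 (-0.12) and endothelium (-0.16). Without a filter the fusion medians were -0.056 for mast cell markers and -0.28 for endothelium. Between the wild types Gata2 1450333_a_at was -0.25 with arrays 1 and 2 of the first cross alone and between -0.066 (without WT array 3) and 0.16 when 1 array was left out. The cause of these changes was not tested. Over all probe sets, 4388 calls with the fusion became 7 with averaged pools, or 3236 with the random block. The 3302 without Cbfb became 0, or 41 with the random block, the 2508 of the difference 0 or 283, and the 1465 between the wild types 0 or 27. Array pair 1 and 2 or 3 and 4 alone gave 4032 and 3990 calls in the difference and 2698 and 3359 between the wild types. With fewer features tested, 1 probe set per gene gave 2671, 1935, 1548 and 830 calls in this order of comparisons, the mean of a gene's probe sets 1701, 1303, 1080 and 428, and a filter at 7 gave 1585 in the difference and 963 between the wild types.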

Other observations

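Further balances between members were taken on each array after the values had been seen, and carry no test. Lmo2 against its scaffold Ldb1 shifted by 1.11 with the fusion and by -0.88 without Cbfb, and in both crosses the mutant and littermate arrays did not overlap. Lmo2 against Tal1 shifted by 2.02 with the fusion and by 0.09 without Cbfb, where the arrays overlapped. Gata1 against Tal1 shifted by 1.16 and 0.37, with no overlap in either cross. Gata1 against its cofactor Zfpm1 (1451046_at) shifted by 0.22, without overlap, and by 0.10, with overlap.

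Within groups, the deviations of the 14 arrays from their group means were most alike for Tal1 and Lyl1 (r = 0.97), for Tal1 and Zfpm1 1423603_at (r = 0.90) and for Lyl1 and Zfpm1 1423603_at (r = 0.90). Over the same arrays Gata2 1450333_a_at and Lmo2 had r = -0.04, although their levels had r = 0.96 across all arrays. These arrays share the pairs of the first cross, and the values are a description.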
